A study of Mus musculus with 12 samples.

Results

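The Notch pathway was followed through 10 genes in mouse mesenchymal stem cells (MSCs) given TGF-β1: the ligands Jag1 and Jag2, the receptors Notch1, Notch2 and Notch3, the glycosyltransferase Lfng, and the target genes Hes1, Hey1, Hey2 and Heyl. They were taken by name from a table of 55401 genes, and all 10 have a row in it. The set was chosen by the measured difference between TGF-β1-treated and untreated MSCs, in which Jag1 is among the largest. Values of all 10 genes in that comparison are therefore given as a description with no test. Tests against untreated MSCs or against TGF-β1 alone further down share libraries with that comparison.

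The cells were bone marrow MSCs of C57BL/6 mice from a commercial supplier, and no genotype or age is given for them. Each of 4 groups has 3 mRNA libraries: untreated MSCs, MSCs with TGF-β1 at 5 ng/mL, and MSCs with the same TGF-β1 in culture supernatant of monocytic (M-MDSC) or granulocytic (G-MDSC) myeloid-derived suppressor cells. The suppressor cells had been induced from mouse bone marrow with GM-CSF and IL-6 and sorted. Every group that received supernatant also received TGF-β1, and no group had supernatant alone. Nothing states whether the libraries of a group came from separate cultures, so p-values measure the spread between these libraries, which may be technical.

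Notch signaling passes between cells in contact. A ligand of the Jagged or Delta-like family on one cell binds a Notch receptor on its neighbor, the receptor is cut by an ADAM protease and then by γ-secretase, and its intracellular domain enters the nucleus, where it joins the DNA-binding protein Rbpj and a Mastermind-like coactivator. Genes of the Hes and Hey families, which encode transcriptional repressors, are the best-known targets, and Fringe enzymes such as Lfng add sugars to the receptors that alter their response to each kind of ligand. In mesenchymal cells the pathway is known for its part in lineage choice, and Jag1 and Hey1 are described as TGF-β-responsive genes in several cell types.

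Promoter sequences from RefSeq (GRCm38.p6) were found for 7 of the 10 genes, and those of Hes1, Hey1 and Heyl were not analysed here. The 250 bases before the RefSeq start were searched on both strands for the core letters of an Rbpj site, TGGGAA or its reverse complement TTCCCA, and of a Smad site, CAGAC or its reverse complement GTCTG. Among 27025 mouse promoters, 21.5% hold the first and 42.1% hold the second. Jag1 has 1 Smad match, Hey2 has 1 Rbpj match and Lfng has 2. Notch3 has 2 Smad matches, and Jag2, Notch1 and Notch2 have no match of either kind. The promoters of Jag1, Hey2 and Lfng are shown because these genes differ in level between the groups and hold a match. Capitals mark the matched letters, the sequences read 5′ to 3′ on the strand of the gene, and they stop just before the gene's start in the deposited table, which lies upstream of the RefSeq start. Counted back from that end, the match begins 85 bases away in Jag1, 189 bases away in Hey2, and 114 and 87 bases away in Lfng. They cover chr2:137116645-137116770 on the minus strand (Jag1), chr10:30842802-30843033 on the minus strand (Hey2) and chr5:140607091-140607319 on the plus strand (Lfng).
Jag1: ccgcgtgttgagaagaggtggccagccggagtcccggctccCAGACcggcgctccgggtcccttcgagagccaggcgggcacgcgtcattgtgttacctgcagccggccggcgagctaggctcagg
Hey2: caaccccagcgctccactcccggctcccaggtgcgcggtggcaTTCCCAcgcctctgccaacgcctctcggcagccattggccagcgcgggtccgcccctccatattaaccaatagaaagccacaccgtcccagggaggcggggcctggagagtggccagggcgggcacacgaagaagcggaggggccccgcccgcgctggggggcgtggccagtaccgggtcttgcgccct
Lfng: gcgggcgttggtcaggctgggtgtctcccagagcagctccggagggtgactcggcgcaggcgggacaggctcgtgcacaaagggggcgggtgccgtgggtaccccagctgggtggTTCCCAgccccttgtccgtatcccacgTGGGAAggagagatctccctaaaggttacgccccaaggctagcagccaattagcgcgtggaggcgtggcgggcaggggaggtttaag
A match is a run of letters and not a measured binding site.

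The libraries held from 73977669 to 84565450 counts. All 7 MSC surface genes listed were detected in each group, and they sum to 580.7 to 597.9 FPKM in untreated MSCs, 499.3 to 512.1 FPKM with TGF-β1, 553.4 to 584.3 FPKM with M-MDSC supernatant and 531.7 to 557.1 FPKM with G-MDSC supernatant. Among them Itgb1, which encodes CD29, averaged 254 FPKM untreated and 385 FPKM with TGF-β1, and Ly6a, which encodes Sca-1, averaged 245 FPKM untreated, 16.2 FPKM with TGF-β1 and 92.5 and 66.9 FPKM in the M-MDSC and G-MDSC supernatant groups. FPKM is the number of fragments scaled by exon length and sequencing depth, and levels are given on this scale unless counts are named. Endothelial genes, 6 in all and including Kdr, sum to at most 0.632 FPKM in any library, and the endothelial gene Pecam1 lies between 0.0674 and 0.218 FPKM. A list of 5 epithelial genes sums to 4.83 to 5.32 FPKM untreated and 0.546 to 0.674 FPKM with TGF-β1. It sums to 0.634 to 1.26 FPKM with M-MDSC supernatant and 0.642 to 1.27 FPKM with G-MDSC supernatant. The supernatant groups hold transcripts of other organs, with all 8 kidney and all 5 liver markers detected in each. For 8 kidney tubule genes the summed level is 0.423 to 0.654 FPKM without supernatant, 68.8 to 80.3 FPKM in the G-MDSC supernatant libraries and 33.1 to 103.7 FPKM in the M-MDSC supernatant libraries. For 5 hepatocyte genes it is listed at 0 in all 6 libraries without supernatant, 50.9 to 56.2 FPKM with G-MDSC supernatant, and 0.0766 to 47.9 FPKM with M-MDSC supernatant. Of the latter group, replicate 3 stands apart, with 6423 counts of the albumin gene Alb against 0 in replicates 1 and 2. A list of 8 blood and myeloid genes sums to 25.3 to 26.2 FPKM untreated, 13.6 to 15.7 FPKM with TGF-β1, 20.3 to 25.8 FPKM with M-MDSC supernatant and 25.6 to 29.0 FPKM with G-MDSC supernatant, most of it from Cd14. With supernatant all 8 were detected, against 5 in either group without it. Lyz2, a lysozyme gene of myeloid cells, averaged 0.0573 FPKM with TGF-β1 alone, 1.54 FPKM with M-MDSC and 1.87 FPKM with G-MDSC supernatant, and S100a9 reached 160 counts in 1 G-MDSC supernatant library. The defining genes Ptprc and Itgam, which encode CD45 and CD11b, stay at or under 42 counts in every library. The part of these transcripts in any result below was not tested, and results that rest on replicate 3 of the M-MDSC supernatant group are also given without it.

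Jag1 encodes a transmembrane ligand of the Jagged family. Its gene lies at chr2:137081456-137116644 (GRCm38, minus strand), and no other annotated gene overlaps it. Untreated libraries held 1.27, 1.13 and 1.01 FPKM of Jag1. With TGF-β1 the 3 libraries held 23.6, 27.5 and 24.4 FPKM. All libraries with TGF-β1 lie far above all untreated ones, and the mean level was 22.1 times as high. The log2 difference is 4.52 ± 0.12 (SE), rank 15 from the top among 12016 genes. In counts, the untreated libraries held 528 to 632 and the TGF-β1 libraries 12364 to 14628, so counting error is small on both sides. In such bulk libraries, more cells with a transcript and more transcript per cell cannot be told apart.

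Jag1 was also compared between the supernatant groups and TGF-β1 alone, as a description with no test. The M-MDSC supernatant libraries held 27.0, 25.1 and 21.2 FPKM, and the G-MDSC supernatant libraries held 28.0, 24.6 and 27.1 FPKM. Each group overlaps the libraries with TGF-β1 alone. The log2 difference from TGF-β1 alone is -0.07 ± 0.11 with M-MDSC supernatant (adjusted p = 0.83) and 0.05 ± 0.11 with G-MDSC supernatant (adjusted p = 0.88). No p is given for these differences, because the TGF-β1 libraries took part in the choice of Jag1. Without replicate 3 of the M-MDSC supernatant group, the first difference is 0.03 ± 0.10. Against untreated MSCs, Jag1 is 4.46 ± 0.12 higher on the log2 scale with M-MDSC supernatant and 4.57 ± 0.12 higher with G-MDSC supernatant, given without a test because the untreated libraries also took part in its choice.

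Jag2, the other Jagged ligand, was close to absent. Its counts are 11, 23 and 8 in untreated MSCs, 0, 8 and 5 with TGF-β1, 0, 8 and 16 with M-MDSC supernatant and 14, 2 and 16 with G-MDSC supernatant. In FPKM the TGF-β1 libraries lie below the untreated ones by a narrow gap, in counts the nearest libraries tie at 8, and the other groups overlap both. In none of the contrasts tested does the adjusted p of Jag2 fall below 0.522 under any setting.

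The Delta-like ligands were low too. Dll1, the highest of them, lies between 0.0965 and 0.336 FPKM over the 12 libraries, Dll4 has at most 12 counts in a library, and Dll3 adds less than 1% to the summed FPKM of the 5 ligands in any library. Jag1 makes up 75.9% to 81.3% of that sum in untreated MSCs and 98.7% to 99.5% in the libraries with TGF-β1. Dll1 gives most of the rest in untreated MSCs, 14.7% to 20.1%. These shares are of mRNA levels per length, not of protein at the cell surface.

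**Figure D1:**
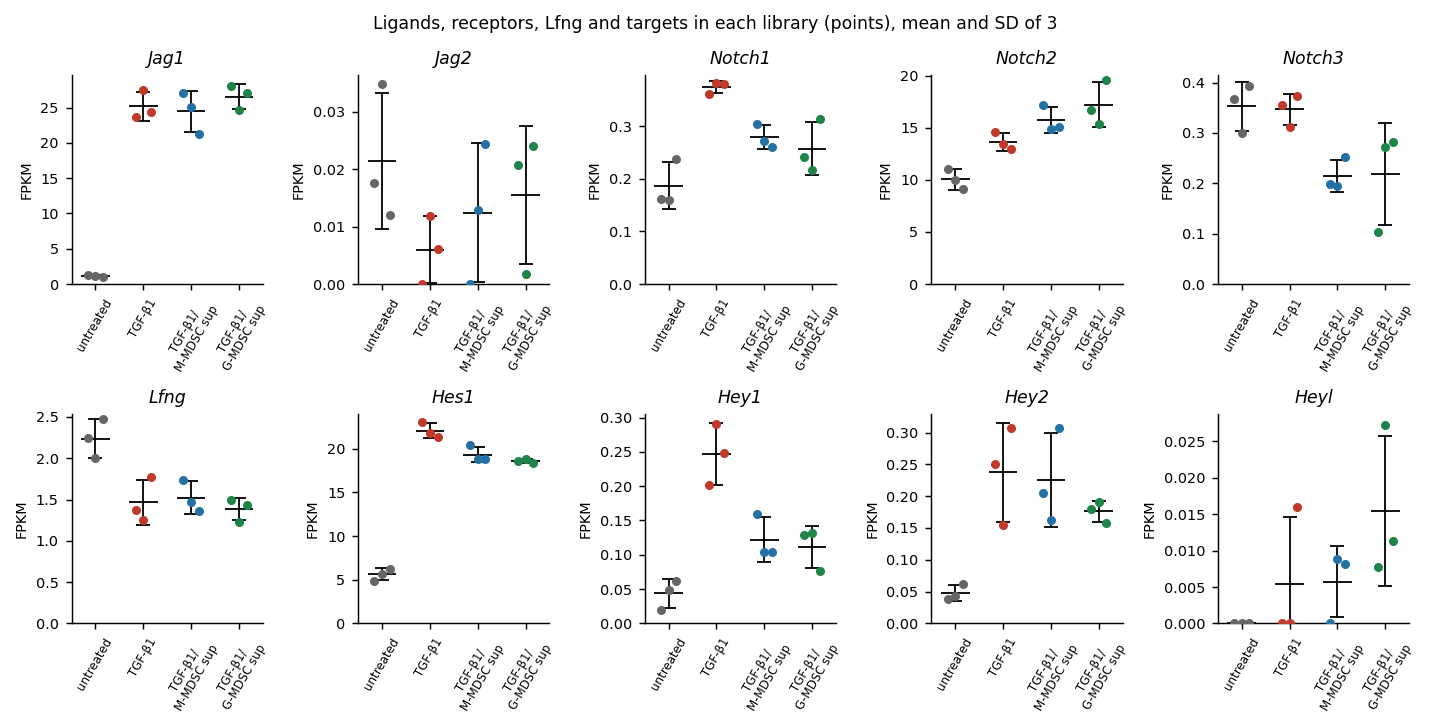
Level of each of the 10 genes in FPKM (vertical axis, linear and from 0, with its own range per gene) in the 4 groups, with 1 point per library and bars for the mean and SD of 3. Jag1 and Hes1 sit low in the untreated libraries and high in all 9 libraries with TGF-β1, Notch2 moves over a narrower range, and Jag2 and Heyl stay close to 0.

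Notch2 was the main receptor. It encodes a transmembrane receptor whose cut intracellular part acts as a transcriptional coactivator, and its gene lies at chr3:98013527-98150361 (plus strand). The untreated libraries held 11.1, 9.99 and 9.09 FPKM, and the TGF-β1 libraries held 14.6, 13.4 and 12.9 FPKM. The groups do not overlap, and the log2 difference is 0.50 ± 0.10 (SE). Notch2 makes up 92.7% to 97.8% of the summed FPKM of the 4 receptors in every library. A pair of unnamed gene models on the same strand overlap it, with at most 46 counts in a library, against at least 8779 counts of Notch2.

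With supernatant, Notch2 was 17.2, 14.9 and 15.1 FPKM (M-MDSC) and 16.7, 15.4 and 19.6 FPKM (G-MDSC). All 6 values lie above the highest with TGF-β1 alone, but neither difference passed, at 0.18 ± 0.10 on the log2 scale (adjusted p = 0.41) and 0.31 ± 0.10 (adjusted p = 0.13). DESeq2 put the second one under the threshold, with an adjusted p of 0.0383, and 21 of 22 settings did not. The differences were 0.11 without M-MDSC supernatant replicate 1 and 0.20 without G-MDSC supernatant replicate 3, respectively. Against untreated MSCs, Notch2 rose by 0.68 ± 0.10 on the log2 scale with M-MDSC supernatant (adjusted p = 0.00036) and by 0.81 ± 0.10 with G-MDSC supernatant (adjusted p = 0.00011), in 22 of 22 settings each. These contrasts and the TGF-β1 contrast share the untreated libraries.

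Notch1 and Notch3 were far lower and did not reach 1 FPKM in 3 libraries, the filter of the main fit. For them, and for Jag2, Hey1 and Hey2, the values come from a second fit of 18871 genes with at least 10 counts in at least 3 libraries. Notch1 (chr2:26457903-26516663, minus strand) held 0.162, 0.160 and 0.238 FPKM untreated and 0.361, 0.382 and 0.380 FPKM with TGF-β1. Those groups do not overlap, and the log2 difference is 1.06 ± 0.18. With M-MDSC supernatant Notch1 held 0.304, 0.272 and 0.261 FPKM, and with G-MDSC supernatant 0.240, 0.217 and 0.314 FPKM. Both supernatant groups lie below all TGF-β1 libraries, and the G-MDSC group overlaps the untreated one. They are below TGF-β1 alone by 0.43 ± 0.18 and 0.56 ± 0.18 on the log2 scale, and neither difference passed (adjusted p = 0.28 and 0.12).

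Against untreated MSCs, Notch1 rose by 0.63 ± 0.18 on the log2 scale with M-MDSC supernatant (adjusted p = 0.022). That call was lost without untreated replicate 1 (adjusted p = 0.0813), untreated replicate 2 (0.0828) or M-MDSC supernatant replicate 1 (0.0714), and it held without M-MDSC supernatant replicate 3 (0.0348). With G-MDSC supernatant the difference of 0.50 ± 0.18 did not pass (adjusted p = 0.062), though it did without untreated replicate 3 (0.0109), without G-MDSC supernatant replicate 2 (0.0427) and in DESeq2 (0.0346). Antisense gene models overlap Notch1, with at most 56 counts in a library. The kit marks strand, but whether counting used it is not given in the sources used here.

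Notch3 (chr17:32120820-32166852, minus strand), the receptor best known from mural cells of vessels, held 0.367, 0.299 and 0.392 FPKM in untreated MSCs and 0.355, 0.313 and 0.373 FPKM with TGF-β1, and the groups overlap. It was lower in all 6 supernatant libraries, with 0.198, 0.195 and 0.252 FPKM (M-MDSC) and 0.103, 0.271 and 0.281 FPKM (G-MDSC). The supernatant groups do not overlap the others, and G-MDSC supernatant replicate 1 is the lowest of all. Neither difference from TGF-β1 alone passed, at -0.70 ± 0.31 on the log2 scale (adjusted p = 0.31) and -0.69 ± 0.31 (adjusted p = 0.30). Without G-MDSC supernatant replicate 1, the G-MDSC supernatant difference from TGF-β1 alone is -0.36, the spread shrank, and the M-MDSC supernatant difference from TGF-β1 alone passed, at -0.70 ± 0.16 (adjusted p = 0.0433), as did that from untreated MSCs, at -0.66 ± 0.16 (adjusted p = 0.0113). A list of 6 pericyte and smooth muscle genes sums to 20.5 to 29.2 FPKM untreated, 46.0 to 56.0 FPKM with TGF-β1 and 28.7 to 38.5 FPKM over both supernatant groups, nearly all of it from Cnn1 and Cspg4. Of that list, Rgs5, Kcnj8 and Abcc9 have at most 41 counts in any library. Cspg4 goes the other way, averaging 0.693 FPKM untreated and 4.14 FPKM with TGF-β1. It averaged 3.25 and 3.34 FPKM with M-MDSC and G-MDSC supernatant. The part of the list in the Notch3 values was not tested. An antisense gene model at Notch3 has at most 13 counts. Notch4 had from 9 to 62 counts in every library.

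Lfng (chr5:140607320-140615545, plus strand), which adds N-acetylglucosamine to sugars on Notch receptors, was lower with TGF-β1. Untreated libraries held 2.25, 1.999 and 2.47 FPKM and TGF-β1 libraries 1.37, 1.26 and 1.77 FPKM. All 9 libraries with TGF-β1 lie below the lowest untreated one. The log2 difference for TGF-β1 alone is -0.55 ± 0.16. With supernatant, Lfng held 1.74, 1.47 and 1.36 FPKM (M-MDSC) and 1.49, 1.23 and 1.43 FPKM (G-MDSC), within the range with TGF-β1 alone for 5 of the 6 libraries. Lfng fell against untreated MSCs with G-MDSC supernatant, by 0.66 ± 0.16 on the log2 scale (adjusted p = 0.0081), under all 22 settings. With M-MDSC supernatant it fell by 0.52 ± 0.16 (adjusted p = 0.026) and lost the call without untreated replicate 1 (adjusted p = 0.0572), untreated replicate 3 (0.0927), M-MDSC supernatant replicate 2 (0.0763) or M-MDSC supernatant replicate 3 (0.0894), and with no filter on low values (0.0577).

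Among the target genes, Hes1 was the one at a high level. It encodes a basic helix-loop-helix repressor that many signals besides Notch can induce, and its gene lies at chr16:30064384-30067796 (plus strand). Untreated libraries held 4.90, 5.69 and 6.26 FPKM and TGF-β1 libraries 23.1, 21.8 and 21.4 FPKM. The groups lie far apart, with a mean 3.93 times as high under TGF-β1. The log2 difference is 2.03 ± 0.08, rank 105 of 12016 genes. Hes1 makes up 97.4% to 98.8% of the summed FPKM of the 4 target genes in every library.

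In the supernatant groups Hes1 was 20.4, 18.8 and 18.9 FPKM (M-MDSC) and 18.6, 18.8 and 18.3 FPKM (G-MDSC). All 6 values lie below the lowest with TGF-β1 alone, and the means are 0.876 and 0.842 times that of TGF-β1 alone. The log2 differences are -0.21 ± 0.08 (adjusted p = 0.19) and -0.27 ± 0.08 (adjusted p = 0.08), and neither passed. The G-MDSC supernatant difference passed in 4 of 22 settings, which were DESeq2 (adjusted p = 0.0265), the 2 groups fitted alone (0.0426), and the fits without untreated replicate 1 (0.0235) or untreated replicate 3 (0.0435). Against untreated MSCs, Hes1 rose by 1.82 ± 0.08 on the log2 scale with M-MDSC supernatant (adjusted p = 4.9e-08) and by 1.76 ± 0.08 with G-MDSC supernatant (adjusted p = 6.7e-08). Thus 83.4% and 78.8% of the difference in mean FPKM seen with TGF-β1 alone was present in the supernatant groups.

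Hey1, Hey2 and Heyl, relatives of Hes1 that are widely used as readouts of Notch signaling, were low throughout. Hey1 (chr3:8663359-8667256, minus strand) had 6, 16 and 19 counts untreated and 60, 88 and 74 with TGF-β1. It had 44, 28 and 30 with M-MDSC supernatant and 40, 38 and 23 with G-MDSC supernatant. The groups fall into 3 steps that do not overlap, with the supernatant libraries between the untreated and the TGF-β1 ones. The log2 difference of TGF-β1 from untreated MSCs is 2.49 ± 0.43. With supernatant, Hey1 differs from TGF-β1 alone by -1.03 ± 0.40 (M-MDSC, adjusted p = 0.25) and -1.16 ± 0.41 (G-MDSC, adjusted p = 0.16), and neither passed.

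Against untreated MSCs, Hey1 lies 1.46 ± 0.43 higher on the log2 scale with M-MDSC supernatant and 1.32 ± 0.43 higher with G-MDSC supernatant. Only 2 of the 3 untreated libraries reach the 10 counts of the filter, which Hey1 met through the groups where it is higher, so these differences are given with no test.

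Hey2 (chr10:30832359-30842801, minus strand) had 16, 19 and 27 counts untreated, 105, 65 and 128 with TGF-β1, 79, 63 and 124 with M-MDSC supernatant and 79, 78 and 66 with G-MDSC supernatant. All libraries with TGF-β1 lie above all untreated ones, and the 3 groups with TGF-β1 overlap. The log2 difference for TGF-β1 alone is 2.31 ± 0.34. Hey2 rose against untreated MSCs by 2.23 ± 0.34 on the log2 scale with M-MDSC supernatant (adjusted p = 0.00054) and by 1.86 ± 0.34 with G-MDSC supernatant (adjusted p = 0.0018), in 18 of 18 settings each. Heyl was near its detection limit, with 0 counts in all untreated libraries, 8 counts in 1 TGF-β1 library, at most 4 with M-MDSC supernatant and 4, 13 and 6 with G-MDSC supernatant, and it entered neither fit.

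**Figure D2:**
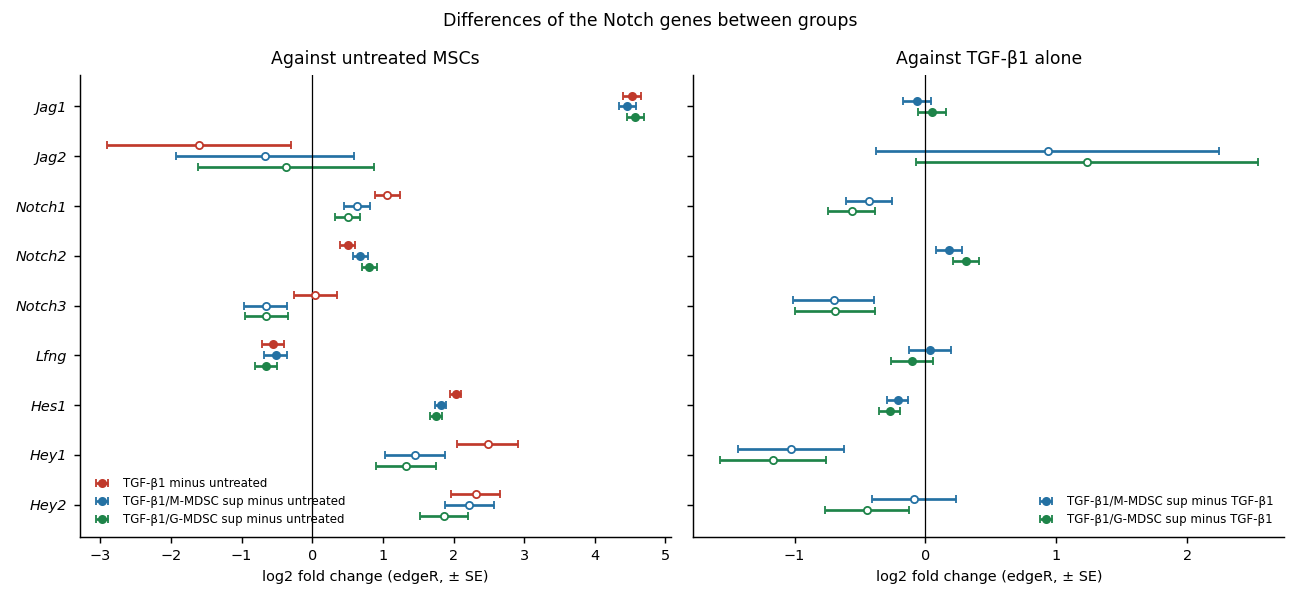
Log2 fold changes from edgeR (horizontal axis, points with bars of 1 SE) against untreated MSCs (left) and against TGF-β1 alone (right) for the 9 genes that could be fitted, with closed points for the 12016-gene fit and open points for the fit with the lower filter. On the left Jag1 stands at 4.46 to 4.57 in all 3 contrasts, and on the right Hey1, Notch1, Notch3 and Hes1 lie below 0 in both supernatant contrasts while Notch2 lies above.

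Counted together, 8 of the 10 genes did not overlap between untreated and TGF-β1 libraries in FPKM: Jag1, Notch1, Notch2, Hes1, Hey1 and Hey2 were higher and Jag2 and Lfng lower. Over 18871 genes, 39.5% did not overlap. At least 1 apart on the log2 scale were 2 of the 4 genes in the 12016-gene fit, where 7.43% of genes were, and 6 of the 9 in the fit with the lower filter, where 16.3% were. These counts come from the contrast that chose the set and nothing is read from them.

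Against TGF-β1 alone, none of the 4 genes in the main edgeR fit passed with M-MDSC supernatant, where 2.83% of genes were higher and 1.95% lower, and none passed with G-MDSC supernatant, where 3.1% were higher and 2.46% lower. At an unadjusted p under 0.05, Hes1 was counted with M-MDSC supernatant, beside 16.7% of all genes in either direction, and Hes1 and Notch2 with G-MDSC supernatant, beside 17.2%. DESeq2 called 0 and 2 of them, beside 6.91% and 8.24% of all genes, and limma 0 and 0, beside 4.49% and 5.61%. In the fit with the lower filter, again none of the 9 passed, beside 3.78% (M-MDSC) and 4.53% (G-MDSC) of all genes. At an unadjusted p under 0.05 there were 4 and 5 of the 9, beside 15.1% and 15.6%. With that filter DESeq2 called 0 with M-MDSC supernatant, beside 6.41% of all genes, and Hes1, Notch1 and Notch2 with G-MDSC supernatant, beside 7.73%. The same 5 genes, Hes1, Hey1, Notch1, Notch2 and Notch3, did not overlap TGF-β1 alone in FPKM in either supernatant group, where 21.5% of genes did not (M-MDSC) and 21.5% did not (G-MDSC). Both counts share the TGF-β1 libraries. Jag1, which is among the 4 and the 9, is given without a test against TGF-β1 alone.

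Between the supernatants, none of the 4 genes in the main edgeR fit passed. At an unadjusted p under 0.05 there were 0, and DESeq2 and limma called 0, where the shares of all genes are 6.33%, 1.01% and 0.325%. Of all genes tested by edgeR, 0.0999% passed in the direction of M-MDSC supernatant and 0.025% in that of G-MDSC supernatant. The log2 differences are -0.12 ± 0.11 for Jag1, -0.13 ± 0.10 for Notch2, 0.06 ± 0.08 for Hes1 and 0.14 ± 0.16 for Lfng. Without M-MDSC supernatant replicate 3 they are -0.02, -0.10, 0.08 and 0.21, and with each library left out in turn they ranged from -0.19 to -0.02 (Jag1), -0.20 to -0.02 (Notch2), 0.02 to 0.08 (Hes1) and 0.03 to 0.21 (Lfng).

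Against untreated MSCs, the 3 genes of the main fit other than Jag1 passed with either supernatant, 2 higher and 1 lower in each case. Each of these contrasts shares the untreated libraries with the one that chose the set. The shares over all genes tested are 16.4% upward and 18.9% downward in the M-MDSC contrast, and 16.4% upward and 18.4% downward in the G-MDSC contrast. With the lower filter, 4 of the 7 genes other than Jag1 and Hey1 were higher and 1 lower with M-MDSC supernatant, beside 13.3% and 13.1% of all genes, and 3 were higher and 1 lower with G-MDSC supernatant, beside 13.6% and 12.9%. Without M-MDSC supernatant replicate 3, the main fit kept 2 of those 3 genes in the M-MDSC contrast, having lost Lfng. The other M-MDSC supernatant differences from untreated MSCs then are 0.71 ± 0.12 for Notch2, 1.84 ± 0.09 for Hes1 and 1.94 ± 0.34 for Hey2 on the log2 scale, and each passed.

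A wider list of 40 pathway genes was read alongside the 10, of which 30 entered the main fit. With TGF-β1 alone, 4 of the 30 rose and 6 fell, where 16.1% of all genes were higher and 17.9% lower, and their median log2 difference was -0.05. These shares are close to those over all genes, and nothing particular to the pathway is read from them. Neurl1a, 1 of the 6, entered the main fit only through the group where it is high. Rbpj, the DNA-binding protein of the nuclear complex, fell from 8.20, 7.20 and 9.11 FPKM to 4.88, 4.87 and 4.98 FPKM, by 0.68 ± 0.13 on the log2 scale (adjusted p = 0.0026). The TGF-β1 libraries do not overlap the untreated ones. Of the coactivators, Maml1, Maml2, Maml3, Snw1 and Ep300 did not pass with TGF-β1 alone, with log2 differences from -0.22 to 0.27.

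On the ligand side, Neurl1a, one of the E3 ligases that drive endocytosis of Notch ligands, fell from 1.15, 1.41 and 1.29 FPKM to 0.471, 0.363 and 0.450 FPKM. It met the filter of the main fit only through the untreated libraries, where it is high, so its test comes from the fit with the lower filter, which its 170 or more counts in every library pass in each group (log2 difference -1.52 ± 0.18, adjusted p = 6.8e-05). Its relative Neurl1b, in the same fit, fell from 250, 495 and 438 counts to 31, 137 and 36 (log2 difference -2.48 ± 0.53, adjusted p = 0.0052). Mib2, another ligase for Notch ligands, rose by 0.44 ± 0.12 on the log2 scale (adjusted p = 0.018), while Mib1 was at -0.05 ± 0.13 and did not pass.

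In receptor processing, Furin, the protease that makes the first cut in the receptor on its way to the surface, rose from 11.3 to 11.8 FPKM untreated to 15.9 to 16.7 FPKM (log2 difference 0.56 ± 0.07, adjusted p = 0.00019). The γ-secretase subunits Aph1a and Aph1b fell by 0.20 ± 0.07 (adjusted p = 0.046) and 0.36 ± 0.12 (adjusted p = 0.044) on the log2 scale. Aph1a passed in 10 and Aph1b in 11 of 22 settings, and with the replicate block Aph1b lost its call (adjusted p = 0.0732). Psen2, Ncstn and Psenen of the same complex, and the proteases Adam10 and Adam17, did not pass. Among the rest, Dtx4 rose by 0.51 ± 0.14 (adjusted p = 0.013) and Itch, a ubiquitin ligase, by 0.21 ± 0.07 (adjusted p = 0.04), the latter in 9 of 22 settings. The Fringe gene Rfng fell by 0.47 ± 0.06 (adjusted p = 0.0002), and Dlk1, a noncanonical ligand described as an inhibitor of Notch, fell by 0.48 ± 0.07 (adjusted p = 0.00022). Without untreated replicate 3, Aph1a, Aph1b, Itch and Mib2 lost their calls, leaving 6 genes. Without TGF-β1 replicate 1, Aph1a, Aph1b, Dtx4, Itch and Mib2 lost theirs and Ncstn gained one, which also leaves 6.

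**Figure D3:**
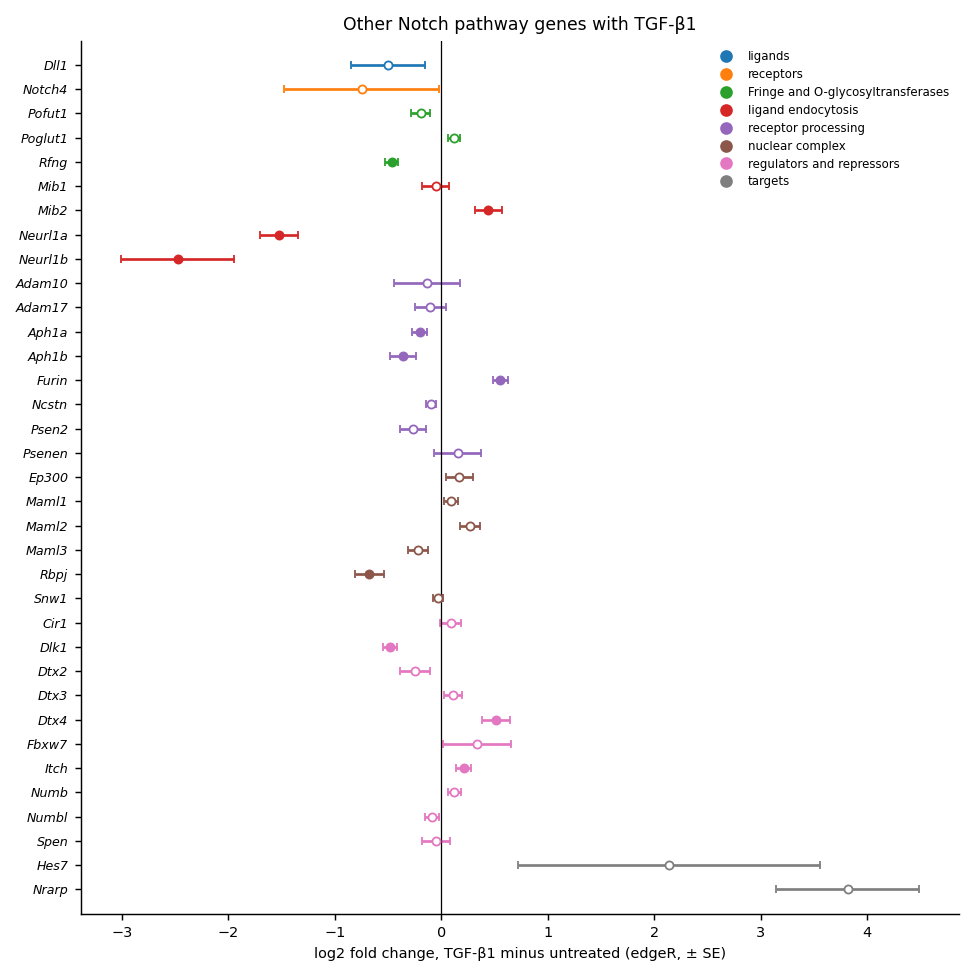
Log2 fold change of TGF-β1 alone against untreated MSCs from edgeR (horizontal axis, points with bars of 1 SE) for 35 other Notch pathway genes, ordered and colored by role, with closed points where the adjusted p is under 0.05 (11 genes). Nrarp, drawn open because none of its untreated libraries reaches the filter of 10 counts, lies farthest to the right and Neurl1b farthest to the left, and most of the other genes lie within 0.5 of 0. Neurl1a is drawn closed from the main fit, whose filter it met only through the untreated libraries, and it also passed with the lower filter.

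Nrarp, a direct target of Notch that feeds back on the receptor's intracellular domain, was nearly undetected in untreated MSCs. It had 4, 4 and 0 counts in untreated libraries and 51, 31 and 32 with TGF-β1. With supernatant it had 31, 50 and 56 counts (M-MDSC) and 79, 60 and 40 (G-MDSC). All 9 libraries with TGF-β1 lie above all untreated ones. Nrarp met the lower filter only through the groups with TGF-β1, so its log2 difference of 3.82 ± 0.67 for TGF-β1 alone is given with no test. Hes5, another well-known target, is at 0 in every library. Hes7 passed in no contrast of the fit with the lower filter, though all supernatant libraries lie above the untreated ones in FPKM. Without untreated replicate 3, it passed with M-MDSC supernatant against untreated MSCs.

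With supernatant, none of the 30 pathway genes passed against TGF-β1 alone in edgeR. At an unadjusted p under 0.05 there was 1 with M-MDSC supernatant (Maml3) and there were 2 with G-MDSC supernatant (Dtx4 and Numbl), beside 16.7% and 17.2% of all genes, and DESeq2 and limma called 0, beside 6.91% and 8.24% (DESeq2) and 4.49% and 5.61% (limma). Leaving out M-MDSC supernatant replicate 1 gave 1 call, Furin, in the M-MDSC contrast. Against untreated MSCs, 1 rose and 9 fell with M-MDSC supernatant, beside the 16.4% and 18.9% over all genes, and 2 rose and 7 fell with G-MDSC supernatant, beside 16.4% and 18.4%. Furin, Rbpj, Dlk1 and Rfng passed in both with the direction seen under TGF-β1 alone. Neurl1a is counted among the 9 and the 7, but it met this filter only through the untreated libraries, where it is high. In the fit with the lower filter it also passed in both, again lower. Maml2, which did not pass with TGF-β1 alone in the main fit, rose with G-MDSC supernatant in 22 of 22 settings. With M-MDSC supernatant it passed in 1 of 22. Maml3 and Numbl, which did not pass with TGF-β1 alone, fell with both supernatants. Maml3 fell by 0.47 ± 0.09 and 0.31 ± 0.09 on the log2 scale (adjusted p = 0.0027 and 0.024) and Numbl by 0.20 ± 0.06 and 0.23 ± 0.06 (adjusted p = 0.031 and 0.016). With the replicate block the M-MDSC call of Numbl was lost (adjusted p = 0.0506), as was that of Dtx2 (0.0847). The M-MDSC call of Maml3 held in 22 of 22 settings and its G-MDSC call in 16, being lost without untreated replicate 1 or 2 or G-MDSC supernatant replicate 1 or 2, with no filter and with only the 2 groups compared (adjusted p = 0.0555 to 0.0912). Numbl held its calls in 14 (M-MDSC) and 20 (G-MDSC) settings, and neither held without untreated replicate 2 (adjusted p = 0.118 and 0.0699). Its M-MDSC call was also lost without untreated replicate 3 (0.0731), M-MDSC supernatant replicate 2 (0.108) or replicate 3 (0.083), and its G-MDSC call without G-MDSC supernatant replicate 1 (0.0637). Rbpj, for example, was at 4.52 to 4.71 FPKM with M-MDSC supernatant and 3.65 to 5.66 FPKM with G-MDSC supernatant.

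Neurl1b lay farther apart between the supernatants. It had 13, 30 and 21 counts with M-MDSC supernatant, which overlaps TGF-β1 alone in FPKM, and 301, 214 and 174 with G-MDSC supernatant, all above TGF-β1 alone. The log2 difference between the supernatants is -3.30 ± 0.57. It did not pass in edgeR (adjusted p = 0.12) and passed in DESeq2 (adjusted p = 8.13e-07). Without TGF-β1 replicate 2, which held 137 counts, edgeR also passed it, at -3.30 ± 0.36 (adjusted p = 0.00994). Without M-MDSC supernatant replicate 3 the difference is -3.26 ± 0.70 (edgeR, adjusted p = 0.159). None of the 30 pathway genes of the main fit passed between the supernatants, with 0 at an unadjusted p under 0.05 and 0 in DESeq2 and limma, beside the 6.33%, 1.01% and 0.325% of all genes.

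**Figure D4:**
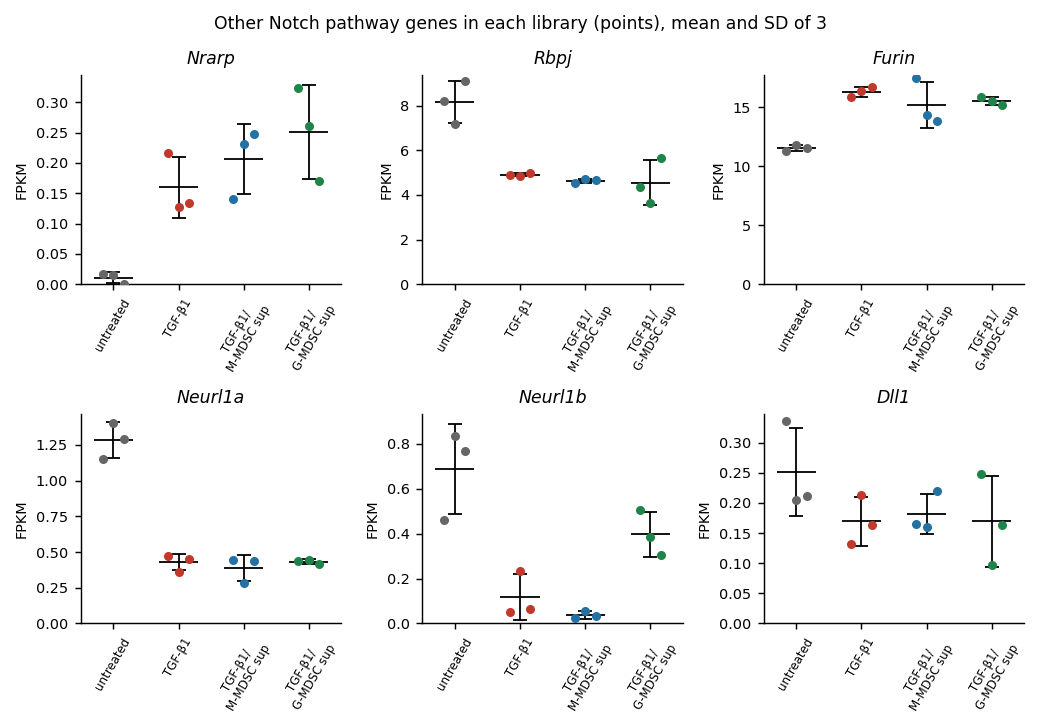
Level of 6 other Notch pathway genes in FPKM (vertical axis, linear and from 0, with its own range per gene) in the 4 groups, with 1 point per library and bars for the mean and SD of 3. Furin and Nrarp are higher and Rbpj and Neurl1a lower in all 9 libraries with TGF-β1, while Neurl1b is low with M-MDSC supernatant and intermediate with G-MDSC supernatant.

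The genes whose log2 levels followed Jag1 most closely over the 12 libraries were Has2, Atp2b4, Vegfa, Map3k20 and Sema7a, with Pearson's r from 0.998 to 0.999 among 12012 genes. These coefficients describe a split between 3 untreated libraries and 9 with TGF-β1 that all points share, and they carry no p. Has2, which encodes a hyaluronan synthase, averaged 13.2 FPKM untreated and 102.3, 102.1 and 113.3 FPKM with TGF-β1 alone, M-MDSC supernatant and G-MDSC supernatant. Vegfa, an angiogenic growth factor gene, averaged 31.3 FPKM untreated and 142.5 to 153.7 FPKM in the other groups. By rank correlation, none of the 5 is among the 5 closest. Within the set, r with Jag1 is 0.983 for Hes1, 0.893 for Notch2 and -0.838 for Lfng over the same 12 libraries, and the rank correlations are smaller, at 0.49, 0.66 and -0.47.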

How the data were processed

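Poly(A) RNA of 12 libraries was sequenced in pairs. Per the paper and the submitters' notes, the authors trimmed reads (cutadapt 1.9) and checked read quality (fastp). They aligned the reads to GRCm38 (HISAT2 2.0.4) and assembled transcripts (StringTie 1.3.4d). The deposited table holds raw counts per gene and library, whose counting tool and strand setting are not given in the sources used here. Beside them stand FPKM values calculated by the authors, with a count of 0 written as 0.0001. Low counts pile up at multiples of 4, with 44.3% of counts from 1 to 12.

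Counts were fitted with edgeR 4.0.16 in R 4.3.3 (TMM scaling, quasi-likelihood F test, two-sided, all 4 groups), over 12016 genes that reached 1 FPKM in 3 or more libraries. A second fit took genes with at least 10 counts in at least 3 libraries. Adjusted p-values are Benjamini-Hochberg over all genes tested, and a gene passed under 0.05. Alternatives used DESeq2 1.42.0, limma 3.58.1 on log2(FPKM + 1) or log2(FPKM + 0.1), median-ratio size factors, no filter, counts divided by 4, 2 groups only, a replicate block and each library left out. For the genes of the second fit, the settings combined with its filter were added after seeing the data. The edgeR fit was tested on simulated data.

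Named genes are the 10 members, pathway genes that passed with a log2 difference of at least 0.5, Rbpj, Notch4 and the Dll ligands, and the 5 genes most like Jag1. Some single genes of the pathway list are not reported here. Others named were picked after their values were seen. The members and lists were chosen with earlier results of these data known. Replicate numbers did not pair the libraries and entered no main fit.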

Additional observations from a re-analysis of the deposited data

Results flagged for a closer look

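Neurl1b was picked out because all M-MDSC supernatant libraries lie below the mean of TGF-β1 alone, 0.117 FPKM, and all G-MDSC supernatant libraries above it. The M-MDSC supernatant libraries overlap TGF-β1 alone in FPKM, with a log2 difference of -1.57 ± 0.56 (edgeR, adjusted p = 0.20), which passed in 0 of 18 settings. The G-MDSC supernatant libraries lie above the highest TGF-β1 library, with a log2 difference of 1.72 ± 0.52 (edgeR, adjusted p = 0.11), which passed in 3 of 18 settings: the replicate block (adjusted p = 0.0499), DESeq2 (0.0145) and without TGF-β1 replicate 2 (0.00489). The direct difference between M-MDSC and G-MDSC supernatant is -3.3 on the log2 scale. In edgeR it passed in 1 of the settings tried, without TGF-β1 replicate 2, and its adjusted p otherwise lay between 0.065 and 0.318. No other gene of the set or of the wider pathway list that entered either fit met this criterion. Heyl and the pathway genes in neither fit were not checked, and groups of 3 were not searched for outlying libraries.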

How the results depend on the processing

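Of the results that count genes or sum up a comparison, 242 alternative values stayed within 1.5 times the main one and 10 did not. Members at least 1 apart on the log2 scale between TGF-β1 and untreated MSCs number 2 in the main fit, 7 without a filter and 6 with the filter of 10 counts, because more of the 10 genes then enter. For the same reason the members passing with M-MDSC supernatant against untreated MSCs go from 4 to 7 with the filter of 10 counts, although Jag1 (in both counts) and Hey1 (in the second) are given without a test. Members passing with G-MDSC supernatant against TGF-β1 alone go from 0 to 2 with DESeq2 and to 1 with only the 2 groups compared. With each library left out in turn, that count was 0 to 1, the pathway genes passing with TGF-β1 against untreated MSCs were 6 to 10 (main 10), and those with M-MDSC supernatant against TGF-β1 alone were 0 to 1 (main 0). The cause was not tested.

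In the contrasts tested, signs turned only for differences that did not pass or, for Jag1, are given without a test, in 20 of the values for single members. For TGF-β1 against untreated MSCs, given without a test, the difference of Notch3 ranged from -0.056 to 0.13 with 1 library left out. For Notch3 between the supernatants (main -0.01), the log2 difference was 0.0064 with counts divided by 4, 0.027 with the replicate block and, without 1 library of the M-MDSC or G-MDSC supernatant groups, 0.18, 0.21, 0.043 and 0.053 in those that turned. The other reversals came from leaving out 1 library: the log2 difference from TGF-β1 alone ranged from -0.14 to 0.028 for Jag1 with M-MDSC supernatant, from -0.074 to 0.21 and from -0.20 to 0.071 for Lfng with M-MDSC and G-MDSC supernatant, and from -0.37 to 0.15 for Hey2 with M-MDSC supernatant (turned to 0.15 and 0.095). Between the supernatants it ranged from -1.23 to 0.28 for Jag2 (turned to 0.13 and 0.28) and from -0.11 to 0.26 for Hey1 (turned to -0.076 and -0.11), and between G-MDSC supernatant and untreated MSCs from -0.80 to 0.14 for Jag2 (turned to 0.14 and 0.11).

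Residuals of the 18 pairs of libraries with the same replicate number correlate at -0.156 to 0.0778, and 2 of 12 libraries correlate best with their own number. With the replicate block, the log2 difference of Hey1 from untreated MSCs was 1.48 (M-MDSC) and 1.33 (G-MDSC), and no call of a member given here changed. Of the pathway genes of the main fit it ended 3 calls, named above. Low counts limit what can be seen of Jag2, Heyl, Hey1, Hey2 and Nrarp.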
